A study of Mus musculus with 10 samples.

Results

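The lysosomal cathepsins are the acid proteases of the lysosome, and 10 of their genes (Ctsa, Ctsb, Ctsc, Ctsd, Ctsf, Ctsh, Ctsl, Ctso, Ctss and Ctsz) were followed by symbol among the 28247 genes of the deposited table. All 10 were measured and all 10 passed the filter on low counts. The cells were primary microglia, brain macrophages grown in culture, from mice of WT genotype. All 10 libraries share a pretreatment with Aβ oligomers, small soluble assemblies of the plaque peptide of Alzheimer's disease. Transfection of a synthetic RNA followed: negative control mimics in 5 libraries, and in the other 5 a mimic of miR-378a-3p, a microRNA, that is, a short RNA that lowers the output of matching messenger RNAs. The study placed this comparison within work on exercise, muscle-derived vesicles and plaque clearance, and it asked how the microRNA acts on microglia. Untransfected cells and cells without Aβ were not analysed here, so every change is relative to Aβ-treated, control-transfected cells. The labels give neither doses and times nor the age of the mice. They do not say either that replicates are different cultures, so p-values measure only the spread between these libraries, which may be technical.

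Cathepsins are made as inactive proforms, tagged with mannose 6-phosphate in the Golgi, carried to acid compartments and activated there by removal of a propeptide. They fall into classes by the residue that attacks the substrate: most members are cysteine proteases of the papain family, cathepsin D is an aspartic protease and cathepsin A is a serine carboxypeptidase. Microglia use them to break down engulfed protein, including amyloid-β, and to process antigens, and some act outside the lysosome when released.

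The libraries held 48707985 to 65069571 deposited counts, and a cathepsin had between 510 and 259091 counts in a library. The first mimic library stood apart by RNA of another cell type. Its summed level of 6 epithelial markers was 63.5 FPKM (fragments per length of the gene model and sequencing depth), against at most 0.396 FPKM in a control library and 0.305 FPKM in the other mimic libraries. Each cathepsin test below kept its direction and its side of the threshold without that library. The macrophage genes Cd68 (526 ± 22.2 FPKM in control libraries, SD, n = 5) and Itgam (83.0 ± 2.77 FPKM) were high. Tmem119 and P2ry12, defining genes of microglia, were low at 0.695 ± 0.113 and 1.49 ± 0.141 FPKM, and C1qa was at 0.496 ± 0.227 FPKM. Other markers of the same list were higher in control libraries, with Cx3cr1 at 28.6, Trem2 at 29.9 and Csf1r at 58.9 FPKM on average. Aif1, C1qb and C1qc were at 2.00, 8.74 and 3.40 FPKM. Of the 15 microglia and macrophage markers 14 fell with the mimic and 1 rose. Their summed level ran from 1025 to 1084 FPKM in control libraries and from 903 to 943 FPKM in mimic libraries, with no marker at 0 throughout. That sum was carried by Cd68, the marker that rose. The median log2 fold change of the 15 markers was -1.28, and Cx3cr1 (-6.00), P2ry12 (-2.58), Adgre1 (-1.45) and Trem2 (-1.28) fell by more than any of the 10 cathepsins. The part of these changes in the cathepsin results was not tested. Summed levels of the other marker lists, apart from the astrocyte and oligodendrocyte lists, were at most 1.24 FPKM outside the first mimic library, with the neuronal gene Rbfox3 at 0 in every library. The astrocyte sum of 74.7 to 107 FPKM was mostly Aldoc, with Gfap at 0.0137 FPKM in control libraries, and the oligodendrocyte sum was 8.92 to 11.7 FPKM.

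With the miR-378a-3p mimic, 8 of the 10 cathepsin genes fell, 1 rose and 1 did not pass the test. Ctss, Ctsc and Ctsb, which encode cathepsins S, C and B, fell most, with percent changes of -42.6, -42.1 and -41.5 in that order. Ctsh (-36.0%) and Ctso (-32.5%) came next, followed by Ctsf (-23.4%), Ctsa (-22.4%) and Ctsd (-15.1%). Ctsl rose by 7.94%, and Ctsz did not pass. Of all 15916 genes tested with edgeR's quasi-likelihood test, at a Benjamini-Hochberg adjusted p under 0.05, 31.5% were lower with the mimic, 31.7% were higher, and 63.2% were called in either direction, so a call in itself was common. The median log2 fold change (mimic over control) was -0.48 over the 10 cathepsins and -0.0021 over all genes tested. CPM (counts scaled to library size) did not overlap between the groups for 8 cathepsins that were lower and 1 that was higher. Of all genes tested, 21.4% were lower without overlap and 30.7% higher, 52.1% together. In bulk RNA, fewer cells of a type and less RNA per cell cannot be told apart.

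**Figure D1:**
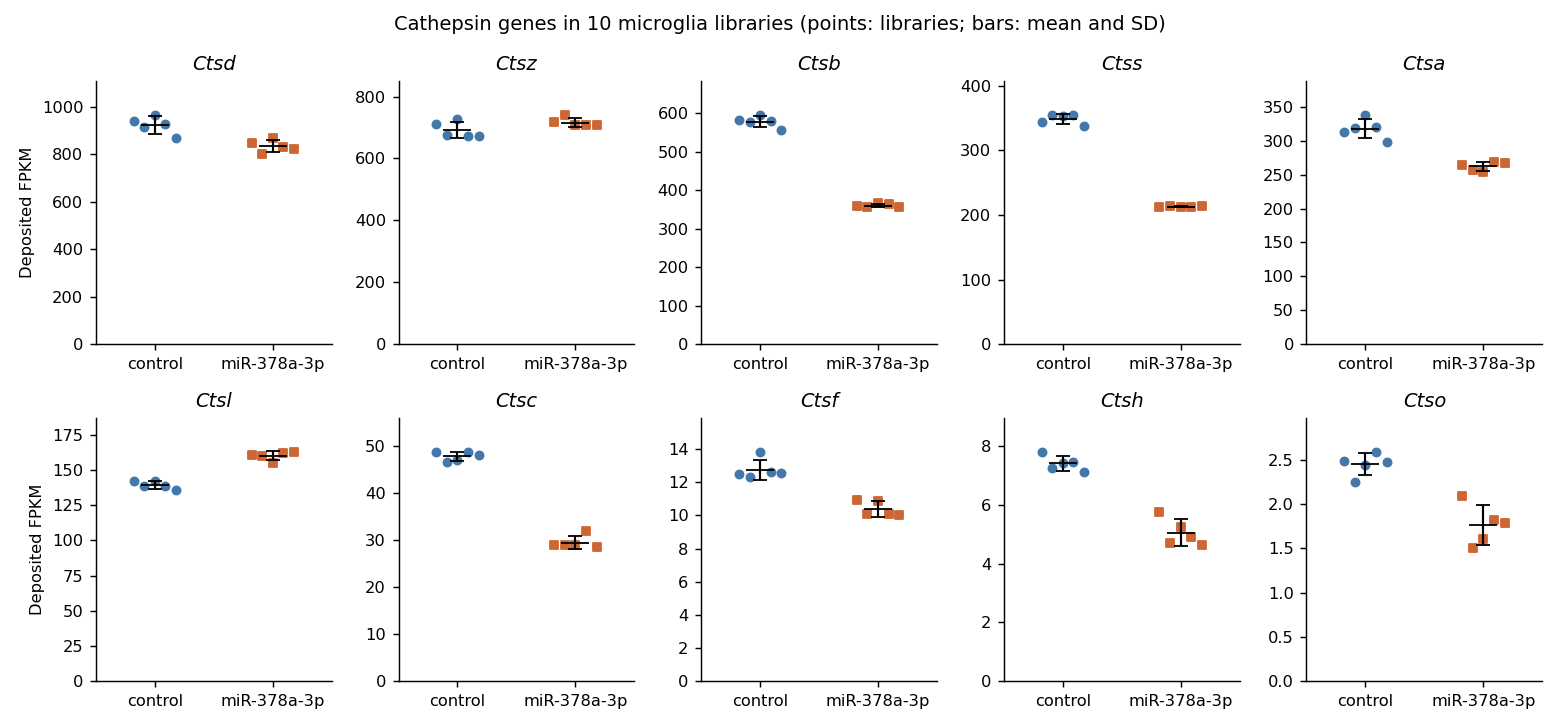
Deposited FPKM (vertical axes, each from 0) of the 10 cathepsin genes in 5 control libraries (circles) and 5 miR-378a-3p mimic libraries (squares), with the mean and SD of each group. Ctsb, Ctss and Ctsc show a wide gap between groups, Ctsl is higher in all 5 mimic libraries, and the Ctsz and Ctsd groups touch or overlap.

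Among the 10 members, Ctss (ENSMUSG00000038642, chromosome 3, 95526786 to 95556403, plus strand), a cysteine endopeptidase, had the largest fall. Coordinates are the table's own, and for 9 of the 10 cathepsins they equal those of the GRCm38 annotation, while for Ctsa the annotated end differs. Cathepsin S stays active at neutral pH, and in antigen-presenting cells it cuts the invariant chain from MHC class II. Its level was 344, 354, 354, 354 and 338 FPKM in the control libraries and 212, 214, 213, 212 and 214 FPKM in the mimic libraries. The mimic values varied by 0.605% (coefficient of variation), the least of any cathepsin in either group, and lay far below every control value. The log2 fold change was -0.80 (SE 0.0276, edgeR adjusted p = 2.50e-12).

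Cathepsin B, an abundant endopeptidase that also trims dipeptides from carboxyl ends, followed closely. Ctsb (ENSMUSG00000021939, chromosome 14, 63122462 to 63145923, plus strand) was at 584, 578, 595, 581 and 556 FPKM in control libraries and at 359, 356, 367, 365 and 357 FPKM in mimic libraries. The groups lay far apart, and the log2 fold change was -0.77 (SE 0.029, edgeR adjusted p = 6.20e-12). Its span overlaps Fdft1 on the opposite strand, at a mean of 16.5 FPKM, and Ctsa and Ctsz likewise overlap Neurl2 (19.7 FPKM) and Nelfcd (13.5 FPKM). Whether the counting used strand is not stated, so reads of these partners cannot be told apart from those of the cathepsins.

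Cathepsin L, a strong lysosomal endopeptidase, was the member that rose. Ctsl (ENSMUSG00000021477, chromosome 13, 64359337 to 64370890, minus strand) was at 142, 139, 142, 139 and 136 FPKM in control libraries and at 161, 160, 155, 162 and 163 FPKM in mimic libraries. Every mimic value was above every control value, by a small margin. The log2 fold change was 0.11 (SE 0.0273, edgeR adjusted p = 0.0024) with TMM scaling, which evens out composition between libraries, 0.19 (adjusted p = 7.78e-06) with library totals in edgeR and 0.20 with limma on log2(FPKM + 1), so the size of this rise depended on the scaling while its direction did not in these fits.

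Cathepsins F and O are less studied cysteine proteases of the same family, and both were low. Ctsf (ENSMUSG00000083282, chromosome 19, 4855130 to 4860918, plus strand) ranged from 12.3 to 13.8 FPKM in control libraries and from 10.01 to 10.9 FPKM in mimic libraries, and its log2 change was -0.39 (SE 0.0454, edgeR adjusted p = 2.29e-06). Ctso (ENSMUSG00000028015, chromosome 3, 81932601 to 81956725, plus strand) was at 2.49, 2.25, 2.45, 2.59 and 2.47 FPKM in control libraries and at 2.09, 1.51, 1.60, 1.82 and 1.78 FPKM in mimic libraries. The groups did not overlap, although the mimic libraries varied by 12.7%, the widest spread of any cathepsin. The highest mimic value, 2.09 FPKM, was in the library that held epithelial RNA. The log2 fold change of Ctso was -0.57 (SE 0.0851, edgeR adjusted p = 2.91e-05), and -0.32 with limma on log2(FPKM + 1), a scale that understates changes of low genes.

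Of the cysteine exopeptidases, which trim residues from the ends of proteins, Ctsc and Ctsh fell and Ctsz did not pass. Cathepsin C removes dipeptides from amino ends and activates granule serine proteases in neutrophils and cytotoxic lymphocytes. Ctsc (ENSMUSG00000030560, chromosome 7, 88278085 to 88310888, plus strand) was at 48.7, 46.7, 47.0, 48.6 and 48.0 FPKM in control libraries and at 29.0, 28.9, 29.0, 31.9 and 28.5 FPKM in mimic libraries. The groups lay far apart, with mimic replicate 4 above the other mimic libraries, and the log2 fold change was -0.79 (SE 0.0322, edgeR adjusted p = 1.57e-11).

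Cathepsin H, an aminopeptidase, was low and fell. Ctsh (ENSMUSG00000032359, chromosome 9, 90054152 to 90076089, plus strand) ranged from 7.11 to 7.80 FPKM in control libraries and from 4.64 to 5.75 FPKM in mimic libraries, with the highest mimic value in the library that held epithelial RNA. The log2 fold change was -0.64 (SE 0.0625, edgeR adjusted p = 2.74e-07).

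Cathepsin Z, also called cathepsin X, is a carboxypeptidase that microglia express strongly. Ctsz (ENSMUSG00000016256, chromosome 2, 174427493 to 174439039, minus strand) was at 711, 674, 728, 671 and 673 FPKM in control libraries and at 717, 739, 710, 708 and 707 FPKM in mimic libraries. The groups overlapped. The log2 fold change was -0.04 (SE 0.0332, edgeR adjusted p = 0.312), and its sign turned with library totals in edgeR (0.04, adjusted p = 0.308) and with limma on log2(FPKM + 1) (0.05), so no direction can be given.

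The 2 members of other catalytic classes fell by less. Cathepsin D is the main aspartic protease of lysosomes. Ctsd (ENSMUSG00000007891, chromosome 7, 142375911 to 142388038, minus strand) was at 942, 917, 964, 929 and 867 FPKM in control libraries and at 850, 803, 868, 830 and 824 FPKM in mimic libraries. Control replicate 5 (867.3 FPKM) lay just under the highest mimic library (868.5 FPKM), so the FPKM groups touched while the groups in CPM did not overlap. The log2 fold change was -0.24 (SE 0.0355, edgeR adjusted p = 2.86e-05), and -0.15 (adjusted p = 0.00293) with limma on log2(FPKM + 1).

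Cathepsin A, the serine carboxypeptidase, also holds the sialidase Neu1 and the β-galactosidase Glb1 in a complex that keeps them stable. Ctsa (ENSMUSG00000017760, chromosome 2, 164832873 to 164840019, plus strand) was at 313, 318, 337, 321 and 299 FPKM in control libraries and at 264, 258, 254, 269 and 267 FPKM in mimic libraries. The groups did not overlap, and the log2 fold change was -0.37 (SE 0.0357, edgeR adjusted p = 2.85e-07). Its partners went the other way in the same libraries. Neu1 rose from 32.0 ± 0.664 to 64.3 ± 3.19 FPKM (SD, n = 5 each) and Glb1 from 35.3 ± 1.48 to 54.6 ± 2.3 FPKM. Galns, a sulfatase reported in the same complex, did not pass (edgeR adjusted p = 0.794) but was called higher with limma on log2(FPKM + 1).

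**Figure D2:**
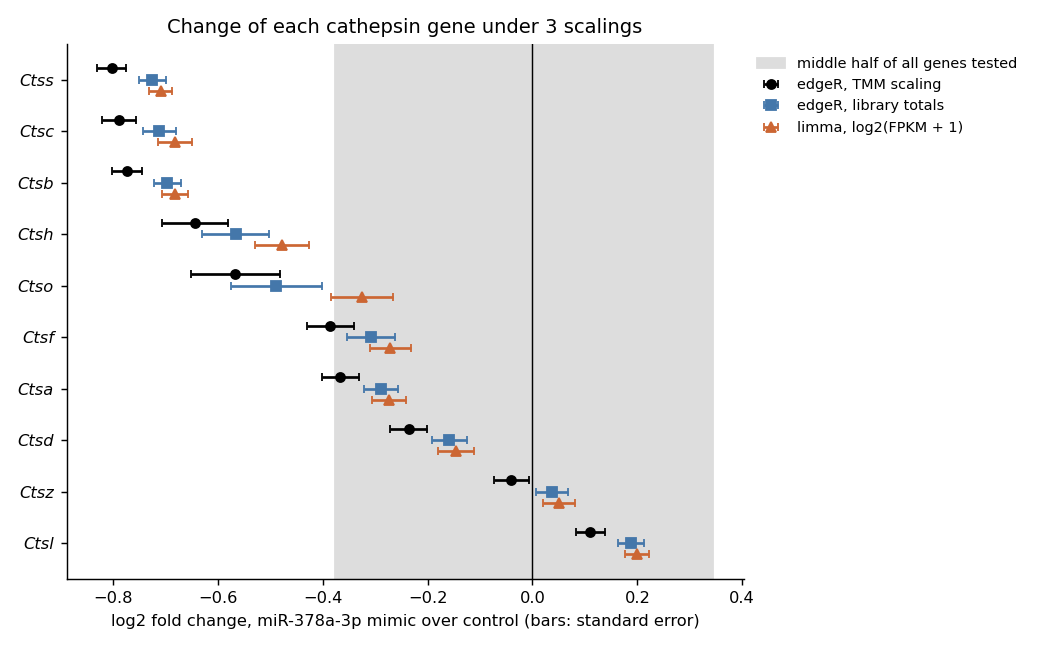
Log2 fold change (horizontal axis, miR-378a-3p mimic over control) of each cathepsin gene with its standard error, from edgeR with TMM scaling (circles), edgeR with library totals (squares) and limma on log2(FPKM + 1) (triangles). The grey band spans the quartiles of all genes tested with edgeR, -0.38 to 0.34. Ctss, Ctsc and Ctsb lie near -0.8 with TMM, and only Ctsz changes sign between the 3 fits shown.

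Because the members moved by different amounts, the balance between them shifted. Ratios within a library do not depend on how libraries are scaled, and they are given here as a description with no test. Ctsl stood at 0.241 ± 0.0026 of the Ctsb level in control libraries and at 0.445 ± 0.0128 in mimic libraries (FPKM ratio, SD, n = 5 each), a ratio 1.85 times as high. The lowest mimic library (0.423) was well above the highest control library (0.244). Ctsd rose relative to Ctsb from a ratio of 1.60 ± 0.0241 to 2.32 ± 0.0513, and Ctsz from 1.19 ± 0.0321 to 1.99 ± 0.0585. Ctsz also gained on Ctsd, from 0.749 ± 0.0205 to 0.858 ± 0.0382, with the control libraries at 0.722 to 0.776 and the mimic libraries at 0.817 to 0.921. In contrast, the ratio of Ctsb to Ctss was 1.66 ± 0.0281 and 1.69 ± 0.0306, and that of Ctsc to Ctss 0.137 ± 0.00487 and 0.138 ± 0.00706. Both of these ratios overlapped between the groups, so Ctsb, Ctsc and Ctss fell in near proportion.

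**Figure D3:**
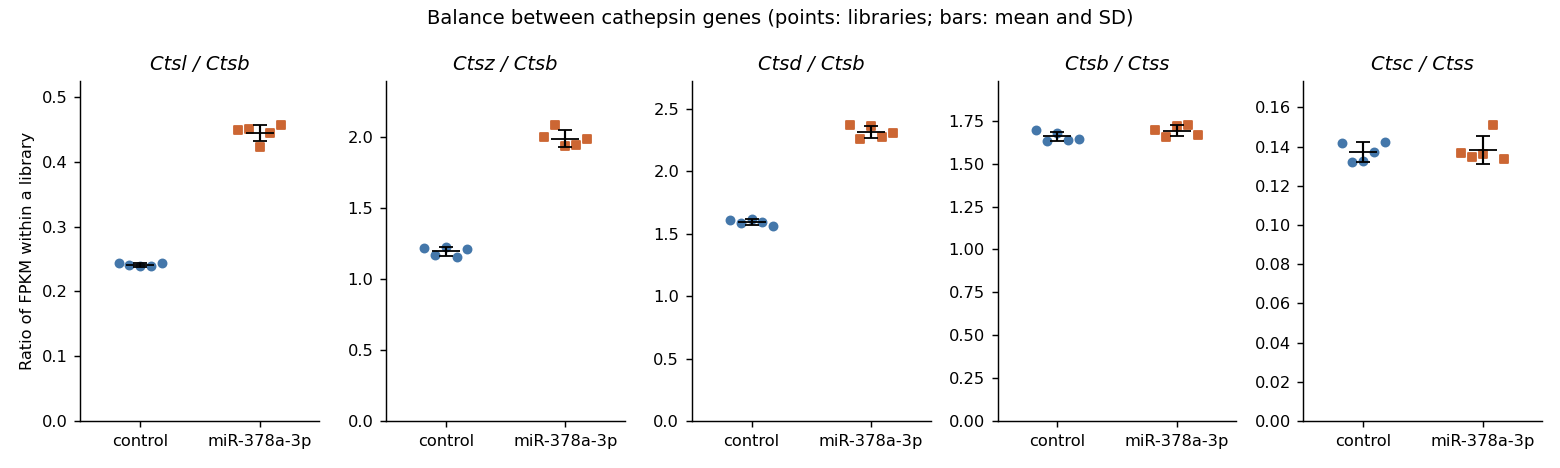
Ratio of deposited FPKM between pairs of cathepsin genes within each library (vertical axes, each from 0), for control (circles) and miR-378a-3p mimic libraries (squares), with the mean and SD of each group. The ratios to Ctsb of Ctsl, Ctsz and Ctsd are higher in all 5 mimic libraries, while Ctsb to Ctss and Ctsc to Ctss overlap.

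The 10 genes together took 1.09% ± 0.0349 of all counts in control libraries and 0.87% ± 0.00857 in mimic libraries, and their summed level went from 3071 ± 92.5 to 2594 ± 18.1 FPKM. The control libraries ran from 2938 to 3192 FPKM and the mimic libraries from 2575 to 2614 FPKM, without overlap. Ctsb supplied 18.9% ± 0.139 of the sum in control libraries and 13.9% ± 0.142 in mimic libraries, and Ctss 11.4% ± 0.265 and 8.21% ± 0.0996. The share of Ctsz was 22.5% ± 0.484 and 27.6% ± 0.628, that of Ctsd 30.1% ± 0.328 and 32.2% ± 0.76, and that of Ctsl 4.55% ± 0.0609 and 6.18% ± 0.146. By CPM, which does not divide by length, the control and mimic shares were 35.3% and 27.3% for Ctsb, 21.9% and 24.5% for Ctsd, 10.03% and 12.9% for Ctsz, 9.11% and 13.0% for Ctsl, and 4.77% and 3.62% for Ctss. The sizes and the order of the shares thus depended on length, while the direction of these 5 did not. For Ctsa and Ctsf the direction turned, with small shifts. The share of Ctsa was 10.3% and 10.1% by FPKM and 15.1% and 15.5% by CPM. That of Ctsf was 0.415% and 0.401% by FPKM and 0.648% and 0.656% by CPM. Ctsd and Ctsz made up more of the summed FPKM of the 10 genes in the mimic libraries, although Ctsd itself fell and Ctsz did not pass. Ctsk, a cathepsin outside the 10, was at 425 FPKM in control and 183 FPKM in mimic libraries on average. It is left out of the sums and shares and of the order of levels that follows.

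By FPKM, the order of the 10 members in control libraries was Ctsd, Ctsz, Ctsb, Ctss, Ctsa, Ctsl, Ctsc, Ctsf, Ctsh and Ctso. No neighbours in that order overlapped over the 5 libraries. In mimic libraries Ctsa (262.5 FPKM) stood above Ctss (213 FPKM) and the rest of the order was as in control libraries, again without overlap between neighbours. This order rests on the gene lengths behind the FPKM values. For 98.5% of 8895 genes with at least 500 counts in every library, the ratio of counts to FPKM matched the merged length of all annotated exons within 1%, and genes with retained introns or long rare transcripts are therefore set low. The merged exons of Ctsl span 6489 bases, with coding transcripts of 582 to 6168 bases, and those of Ctsh span 4499 bases against 1617 in its longest coding transcript. Ctss (1358 bases) and Ctsz (1441 bases) have almost nothing added. Per longest coding transcript, Ctsb (738) stood above Ctsz (692) and Ctsa (411) above Ctss (350) in control libraries, in mean FPKM rescaled to that length, and Ctsf and Ctsh were 32.5 and 20.6. Fold changes of a gene are not affected by its length.

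**Figure D4:**
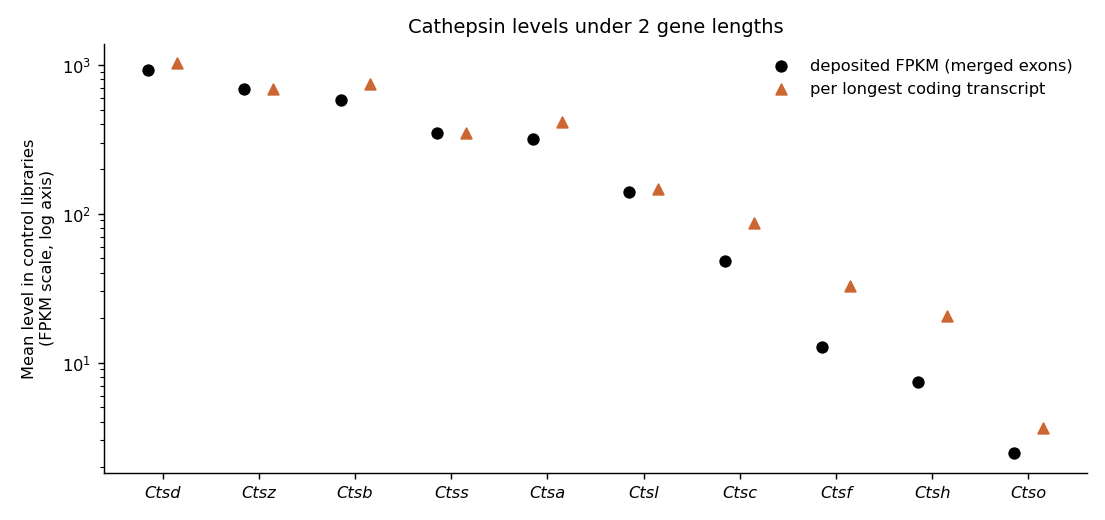
Mean level of each cathepsin gene in the 5 control libraries on a log axis, as deposited FPKM (circles, per merged exons) and rescaled to the longest coding transcript (triangles). The markers of Ctsf and Ctsh lie farthest apart, and Ctsz and Ctss have the same level under both lengths.

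The profiles that lay nearest to the member with the largest fall and to the one that rose were sought over the 10 libraries among 11521 genes with a mean of at least 1 FPKM. The gene nearest to Ctss was Ctsb, with a root mean square difference of 0.0267 in centred log2 CPM, followed by Man1c1 (0.0328) and Lima1 (0.0357). Ctsc was at rank 49 and Ctsh at rank 460. Nearest to Ctsl were Il2rg (0.0238), Tmbim6 (0.0243) and M6pr (0.0254), and its closest fellow cathepsin, Ctsz, was at rank 1211. These distances reflect mostly the group difference and are a description.

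Few cathepsin genes outside the 10 were expressed. Of 13 listed, 3 were in the table and 2 were tested. Ctsk, the collagen-degrading cathepsin of osteoclasts, lies 17423 bases upstream of Ctss on chromosome 3 (95499256 to 95509362). It was at 441, 418, 439, 430 and 396 FPKM in control libraries and at 187, 170, 187, 186 and 186 FPKM in mimic libraries. The groups lay far apart, and its log2 change, -1.30 (SE 0.0387, edgeR adjusted p = 5.34e-13), was larger than that of any of the 10. Ctse, an aspartic protease, was at 0.739 and 0.603 FPKM and passed narrowly (-0.38, SE 0.153, edgeR adjusted p = 0.0417), and it was not called with library totals. Ctsw was at most 0.429 FPKM in any library and was not tested.

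Inhibitors of cathepsins went both ways. Of 17 listed, 8 were tested, 4 rose, 2 fell and 2 did not pass. Those that rose include Ctla2a and Stfa1, which were very low. Ctla2a was at 0.0232 FPKM in control and 0.252 FPKM in mimic libraries, and Stfa1 at 0.147 and 0.491 FPKM. With limma on log2(FPKM + 1), which filters by mean FPKM and so tested a partly different set, 6 rose and 2 fell. Cst7, cystatin F, a lysosomal inhibitor that targets cathepsin C, fell from 69.1 ± 2.17 to 12.7 ± 1.47 FPKM (SD, n = 5 each). Cst3, the secreted cystatin C, fell from 155 ± 8.72 to 127 ± 3.87 FPKM. Cstb, a cytosolic cystatin, was at 264 ± 13.6 and 297 ± 18.2 FPKM and did not pass (edgeR adjusted p = 0.151). It was called higher with limma on log2(FPKM + 1). Csta2 rose from 5.37 ± 0.451 to 8.83 ± 1.22 FPKM and Serpinb6a, a cytosolic serpin, from 49.0 ± 1.73 to 57.1 ± 1.68 FPKM. Csta2 has near-identical copies, and its counts are uncertain.

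Genes that mature and sort cathepsins also split, with 5 that rose, 6 that fell and 1 that did not pass of 12 (5 and 3 with limma on log2(FPKM + 1)). Lgmn, legumain, which cuts several cathepsins into their heavy and light chains, fell from 463 ± 13.8 to 234 ± 8.25 FPKM. Its log2 fold change was -1.07, with an SE of 0.0348 and an edgeR adjusted p of 1.34e-12. Psap, the precursor of the saposins, fell from 631 ± 25.3 to 468 ± 7.51 FPKM. Gnptab, part of the enzyme that starts the mannose 6-phosphate tag, fell from 32.6 ± 0.626 to 26.4 ± 1.13 FPKM. Igf2r, the large receptor for that tag, rose from 11.4 ± 0.452 to 16.9 ± 0.774 FPKM, and M6pr, the small one, from 42.2 ± 0.405 to 48.1 ± 1.01 FPKM.

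Other lysosomal genes moved in both directions. Of 28 tested hydrolases that cleave sugars, lipids, sulfates or phosphates, 13 rose, 9 fell and 6 did not pass, with a median log2 fold change of 0.09 (17 rose and 8 fell with library totals, median 0.16). Of all 15916 genes tested, 5937 rose and 4225 fell with library totals, median 0.075, so that scaling moved genes in general upward. Naglu (-0.95) and Acp2 (-0.65) fell, in log2 fold changes, and Lipa, the acid lipase, rose (0.61). Of 7 other lysosomal peptidases 3 rose, 3 fell and 1 did not pass (3 rose and 2 fell with library totals), with Scpep1 at 0.30, Dpp7 at -0.29 and Napsa at -0.20 besides Lgmn. Of 18 subunits of the proton pump that acidifies lysosomes 10 rose, 6 fell and 2 did not pass (11 and 5 with library totals). Atp6ap1, Atp6v0b and Atp6v0a2 rose by 0.70, 0.56 and 0.98, and Atp6v1c1 fell by 0.35. Besides the 10 members, 104 tested genes carry the KEGG lysosome term in the table's annotation, a group added after the data had been seen. Only the 10 members were taken out, so any other cathepsin with that term remains. Of these 104 genes, 49 rose, 39 fell and 16 did not pass, with a median of 0.07. With library totals 55 rose and 28 fell. All 10 cathepsins carry that term.

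**Figure D5:**
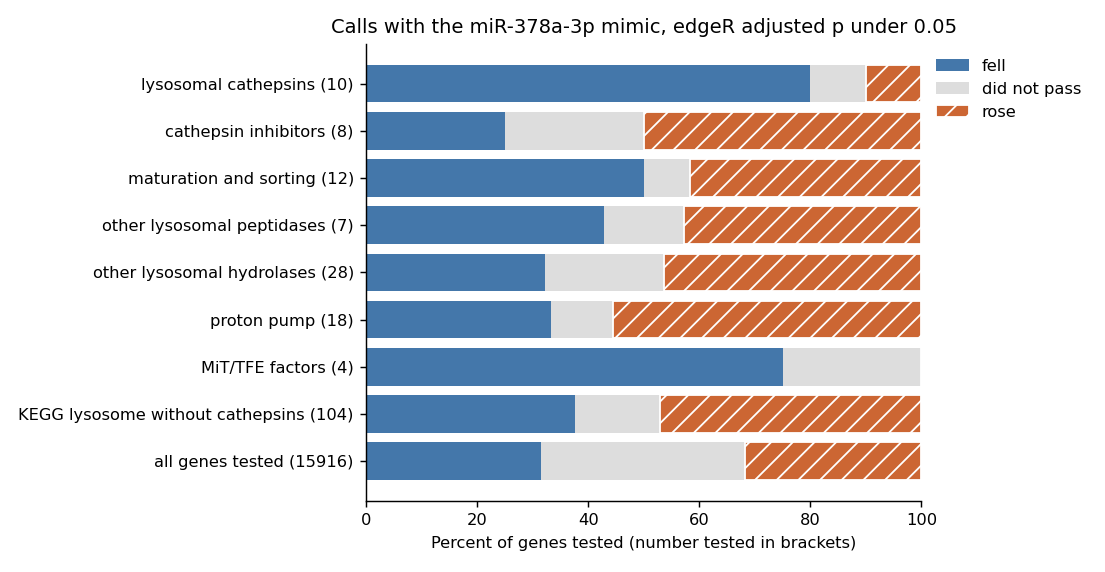
Percent of tested genes that fell (solid dark), did not pass (light) and rose (hatched) with the miR-378a-3p mimic, for the cathepsins, related gene lists and all genes tested, with the number tested in brackets. 8 of 10 cathepsins fell, against 31.5% of all genes tested, and the proton pump and other hydrolases hold more genes that rose than fell. The KEGG lysosome bar leaves out only these 10 cathepsins.

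Few genes were tested of the routes that depend on single cathepsins. Of 7 listed genes of MHC class II and the invariant chain, the best known substrate of cathepsin S, 3 were tested. Cd74, the invariant chain, rose from 176 ± 5.8 to 264 ± 8.66 FPKM, opposite in direction to Ctss. H2-DMb1, part of the peptide loader, fell from 14.5 ± 0.502 to 11.3 ± 0.969 FPKM, and H2-DMa rose from 0.477 ± 0.0931 to 0.788 ± 0.134 FPKM. H2-Ab1 was listed at 0 in all 10 libraries. Of 10 listed symbols for granule serine proteases that cathepsin C can activate, only Prtn3 was tested, at 0.543 and 0.162 FPKM.

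Transcription factors of the MiT/TFE family bind CACGTG sequences in the promoters of lysosomal genes and raise their transcription. Tfeb fell from 8.89 ± 0.289 to 2.28 ± 0.28 FPKM. This was a change of -2.05 in log2, with an SE of 0.0741 and an edgeR adjusted p of 4.29e-12. Mitf fell from 7.26 ± 0.211 to 2.71 ± 0.127 FPKM, and Tfe3 fell by 0.14 on the log2 scale, with overlapping groups and a call that was lost with library totals. Tfec, at 0.0251 FPKM in control libraries, did not pass. RefSeq promoter windows (GRCm38.p6, from 250 bases before to 50 after a start, 300 in all) were given for 8 of the 10 cathepsins, not for Ctsb and Ctsh. CACGTG, which reads the same on both strands, occurred in those of 4 of the 8, against 8.09% of 27025 genes and 7.15% of 32851 windows. The longer TCACGTG, sought on both strands and always overlapping a CACGTG, occurred in those of Ctsa and Ctsd, against 4.29% of genes. The stretches are shown 5′ to 3′ on the gene's strand, with CACGTG in capitals, because they are where these 4 promoters share letters.
Ctsa (chr2:164833759-164833785, plus strand, the second of its starts): gtCACGTGatgcagatgctCACGTGac
Ctsd (chr7:142387910-142387935, minus strand): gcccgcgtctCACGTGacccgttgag
Ctsd (chr7:142388057-142388077, minus strand): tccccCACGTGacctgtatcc
Ctsf (chr19:4855076-4855101, plus strand): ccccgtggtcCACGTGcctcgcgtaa
Ctsl (chr13:64370741-64370766, minus strand): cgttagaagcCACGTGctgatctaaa

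The Ctsa stretch holds the motif beginning 12 bases before the start and again just past it, and its other start has none in the window. The motifs of Ctsd begin 98 and 245 bases before the RefSeq start, that of Ctsf 79 and that of Ctsl 236 bases before it. By the gene spans given above, the stretches of Ctsa and Ctsl and the nearer one of Ctsd lie inside the gene. The 4 cathepsins with the letters had log2 fold changes from -0.39 to 0.11, and the 4 cathepsins with none in their windows were Ctsc (-0.79), Ctss (-0.80), Ctso (-0.57) and Ctsz (-0.04). A match of letters is a description of the sequence, and binding was not measured.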

How the data were processed

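The deposited table holds an estimated count and an FPKM value for each gene in each library, per the file headers. The libraries were paired-end, from oligo(dT)-selected RNA with the second strand marked by dUTP, per the labels' protocols. The submitters' processing notes name StringTie 2.1.6, HISAT2 2.2.1 and cutadapt 1.9, besides edgeR and DESeq2, and the build GRCm39, but no roles and no annotation release. However, 90.9% of the table's genes found in GENCODE M21 had its GRCm38 start and end (9 of the 10 cathepsins), so coordinates are read as GRCm38. The deposited counts were whole numbers, about 4 per read pair (933.5 genes per library had 4 counts, against 485.6 with 3 and 305.8 with 5). All 20 value columns matched a library by name.

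Groups came from the treatment label and replicate numbers from the titles. Genes kept by filterByExpr were scaled by TMM and tested with edgeR 4.0.16 (glmQLFit, glmQLFTest, R 4.3.3), 5 against 5 libraries with no covariate. SE is the log2 fold change divided by the square root of F. limma 3.58.1 and DESeq2 1.42.0 served as alternatives, and the limma fits kept genes with a mean of at least 0.1 FPKM. The members and the 18 gene lists were chosen with earlier results of these data known, and lists are described by counts, with no set test. Named genes are the 10 members, up to 4 genes per list with the smallest adjusted p and a group mean of at least 1 FPKM, and the 3 nearest profiles, less 1 gene that is not reported here. The others (Cstb, Ctla2a, Stfa1, Galns, Ctse, Ctsw, H2-DMa, H2-Ab1, Prtn3, Tfec, the overlapping genes and the markers) were named after their values were seen. Promoter sequences are from RefSeq. 3′ UTR matches to the microRNA and protein sequences were not analysed here. No pair of libraries within a group was a duplicate (chi-square at least 2.8 per degree of freedom on counts divided by 4). The scripts were tested on simulated counts.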

Additional observations from a re-analysis of the deposited data

Results flagged for a closer look

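The 10 cathepsins and the genes that the rule picked from the lists, not the nearest profiles, were checked for a single library far from the other 4 of its group (Dixon's ratio, 74 groups of 5), of which chance flags about 1 in 20, and 4 values stood out. Ctsc was at 31.9 FPKM in mimic replicate 4, with the other mimic libraries between 28.5 and 29.0. Ctsf was at 13.8 FPKM in control replicate 3, with the others between 12.3 and 12.6. Ctsk was at 170 FPKM in mimic replicate 2, below the 186 to 187 of the others, and Mitf was at 6.88 FPKM in control replicate 5, below the 7.33 to 7.40 of the others.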

How the results depend on the processing

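All 19 alternatives gave 8 cathepsins lower and 1 higher, and for 9 of the 10 genes each alternative kept the direction and the call. The exception was Ctsz, not called in any fit, whose log2 fold change of -0.04 became 0.0375 with library totals without TMM, 0.051 with limma on log2(FPKM + 1) and 0.051 with limma on log2(FPKM + 0.1). Library totals moved all genes by a median of 0.0771 on the log2 scale. Over the alternatives Ctsl ran from 0.0761, without control replicate 5, to 0.201, with adjusted p of at most 0.025. Ctsd ran from -0.28 to -0.15, Ctso from -0.63, without mimic replicate 1, to -0.32, and Ctss from -0.84 to -0.71. Genes called numbered 10056 with edgeR, 9711 to 9974 with 1 library left out and 8438 to 10162 over all alternatives. The share that was higher was 50.2%, against 58.4% with library totals and 59.8% with limma on log2(FPKM + 1). With a replicate block 9768 genes were called, 4879 higher and 4889 lower. The labels do not say that equal numbers share a culture, and deviations of same-numbered libraries correlated at -0.00866 to 0.0622, with 2 of 5 control libraries correlating best with their own number. Shares of the summed FPKM kept within 1 SD with any library left out. By CPM 20 of 20 moved by more than 1 SD, and 19 of 20 per longest coding transcript, an alternative added after seeing the data. A floor of 12 counts, or 3 read pairs, is 0.184 to 0.246 CPM, covers counting error only, and lies far below every cathepsin.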
